A study of Mus musculus with 24 samples.

Results

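Bone marrow CD11b+ cells 2 weeks after myocardial infarction (MI) were compared with bone marrow CD11b+ cells of control mice of the same genotype. The comparison used 6 of the 24 arrays of the series, 3 from control mice and 3 from mice 2 weeks after MI. They formed 3 pairs, one each of WT mice, HDC-KO mice (lacking histidine decarboxylase, the enzyme that makes histamine) and STAT6-KO mice (lacking STAT6, a transcription factor of IL-4 and IL-13 signalling). By the study's methods, all mice were male and 10 weeks old, on a Balb/C background, and had no further treatment named in the sources. The labels call the comparison mice control and do not say whether they had sham surgery. Each array held Cy3-labelled RNA of cells pooled from 5 mice, so an array is 1 pooled sample and there is no repeat of any genotype at either time. CD11b, an integrin chain, is carried by neutrophils, monocytes and several other cell types. A lower signal from such a mixture cannot tell fewer cells of a type apart from less RNA per cell.

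Bone marrow makes the neutrophils and monocytes that enter an infarct. Immature neutrophils fill azurophil granules first and specific and gelatinase granules later, and leave the marrow as signals that hold them there, such as the CXCL12 receptor Cxcr4, give way to the chemokines CXCL1 and CXCL2. Glucocorticoids, interferons and adrenergic nerves all act on these cells, each through its own set of target genes.

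Levels are log2 spot signals relative to the 75th percentile of their array, and a difference is the level 2 weeks after MI minus the level in control mice. Levels of different probes cannot be set against each other. Values given 3 at a time are always in the order WT, HDC-KO and STAT6-KO. The 75th percentile of the signals lay between 1344 and 1780 on the 6 arrays, and 75.2 to 79.7% of spots were well above background. Each slide held the 4 bone marrow time points of 1 genotype in the same positions, so genotype and slide, and time and array position, cannot be told apart.

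Of 26595 genes tested with the genotypes as pairs, 0 passed an adjusted p under 0.05 (limma, percent called 0%), and the smallest adjusted p was 0.492. At an unadjusted p under 0.05, 2611 genes differed (9.82%), 1621 of them higher (6.1%) and 990 lower (3.72%) after MI. With 3 pairs, a single gene tested by exchanging the arrays within pairs could not reach an exact p below 0.25. On simulated data, at an adjusted p under 0.05, the fit recovered 92% of genes given a true difference of 2 on the log2 scale. It recovered 6% of those given a difference of 1. At an unadjusted p under 0.05 these shares were 100% and 94%. The simulated data held 50 changed genes at each of 1, 2, 3 and 4 on the log2 scale, a mix on which the adjusted shares depend. The simulated noise was independent between genes, with the spread that the fit had already estimated, so the shares need not hold here. Ms4a8a, for example, was lower by 2.40 (SE 0.21) and did not pass. The differences below are therefore descriptions of 3 pairs. A difference of over 2-fold in each of the 3 pairs was found for 44 genes (0.165%), 17 higher (0.0639%) and 27 lower (0.102%). Of the 27 lower genes, 20 were well above background on all 6 arrays, against 4 of the 17 higher genes. Across genes, the differences in the 3 pairs resembled each other little (r = 0.23 for WT and HDC-KO, 0.04 for WT and STAT6-KO, and 0.13 for HDC-KO and STAT6-KO, over genes that are not independent).

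The labels were checked first. Hdc read 5.11 and 4.75 in WT mice (control, then 2 weeks after MI), 2.51 and 2.78 in HDC-KO mice, and 5.04 and 5.07 in STAT6-KO mice. Stat6 read 1.76 and 2.34 in STAT6-KO mice and 2.65 or more on the other 4 arrays. Itgam, which encodes CD11b, lay between 5.10 and 5.85 on all 6 arrays. Xist, the RNA of X inactivation in female cells, read -5.42, -2.07 and -3.51 in control mice and -5.77, -2.78 and -5.08 after MI, highest in the HDC-KO mice and lower after MI in each pair. The Y-linked genes were lowest in HDC-KO mice and higher after MI in each pair, Uty by 0.58 on average (SE 0.12), Ddx3y by 0.51 (SE 0.13) and Eif2s3y by 0.15 (SE 0.12). The part of these differences in the other results was not tested.

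The STAT6-KO pair stood apart in genes of heart muscle. For 24 such genes, a list written after their values had been seen, the median level was -3.11 in STAT6-KO control marrow and 0.48 in STAT6-KO marrow 2 weeks after MI, while on the other 20 complete arrays of the series it lay between -5.17 and -3.99. All 24 were highest on the STAT6-KO marrow array 2 weeks after MI. Myh6, the heavy chain of cardiac myosin, read -3.98, -4.27 and 0.02 in control mice and -4.26, -2.85 and 4.03 after MI. Mb, the oxygen store myoglobin, read -6.47, -6.12 and -1.48 in control mice and -5.76, -3.78 and 2.82 after MI, although only 5 of its 6 readings were well above background. The median difference over the list was -0.02, 0.30 and 3.34. Over 2-fold higher levels were seen in 0, 4 and 24 of the 24 genes, where 4.4%, 4.69% and 3.33% of all genes were over 2-fold higher. The members were chosen with these values known, so the counts describe them and cannot be read against the shares. Of 12 genes of fast skeletal muscle, 10 of them tested, 3 were over 2-fold higher in the STAT6-KO pair. The medians over the 12 genes were 0.16, -0.24 and 0.02. Among the genes whose difference in the STAT6-KO pair most exceeded both others were Fabp3 (fatty acid uptake), Fhl2 and Pdk4 (fuel choice in mitochondria). They differed by 4.27, 3.99 and 3.74 in the STAT6-KO pair and by between -0.37 and 0.22 in the other pairs. Fabp3 and Fhl2 are already counted among the 24 heart muscle genes.

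**Figure D1:**
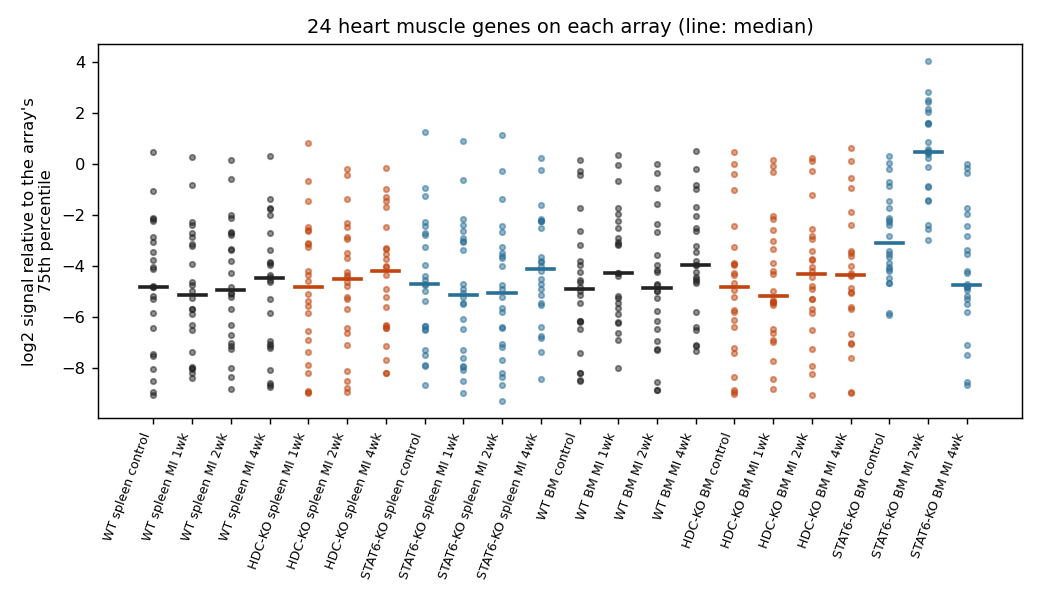
Levels of 24 heart muscle genes (log2 signal relative to the array's 75th percentile, y axis) on each of the 22 complete arrays (x axis); points are genes and the line is the median. The median was 0.48 on the STAT6-KO bone marrow array 2 weeks after MI and -3.11 on its control, and lay between -5.17 and -3.99 on the other 20 arrays.

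Genes of matrix and marrow stroma were higher in the same pair. Over 20 tested collagen and matrix genes, the median difference was 0.00, 0.03 and 1.46, and 0, 1 and 12 genes were over 2-fold higher in the WT, HDC-KO and STAT6-KO pairs, where 4.4%, 4.69% and 3.33% of all genes were. Col3a1, the chain of type III collagen, differed by -0.86, 0.26 and 2.51, and Postn, periostin of scar tissue, by -0.57, 0.33 and 2.45. Without the STAT6-KO pair, the median of the list was -0.12, on the other side of 0 from the 0.56 with it. Lum (lumican, which spaces collagen fibrils) was higher in each pair, by 0.78, 0.47 and 1.93, whereas Fn1 (fibronectin) was lower in each, by 1.13, 0.57 and 0.61. Marrow stroma markers had medians of -0.01, 0.02 and 0.98, and Cxcl12, the chemokine that holds myeloid cells in marrow, read 1.79, 1.98 and 0.71 in control mice and 1.66, 2.09 and 2.27 after MI. Whether the heart muscle transcripts and these differences share a source was not tested.

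The genes with the largest smallest pair difference, in each direction, were named by rule, and none of them passed the adjusted test (adjusted p = 0.492 for each). Hspa1a, an inducible HSP70 chaperone with a near-identical copy, Hspa1b, that the probe may also read, was the only gene with a symbol that was over 2-fold higher in each pair and well above background on all 6 arrays. It read -3.82, -4.53 and -4.31 in control mice and -1.30, -0.19 and -2.86 after MI, without overlap. The mean difference was 2.76 (SE 0.60, 3 pairs), or 6.80-fold. It was also higher at the other times, by 3.92 and 2.48 at 1 week in WT and HDC-KO mice and by 3.90, 3.42 and 3.16 at 4 weeks, against the same control arrays.

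The other chaperones did not follow it in WT mice. Hsph1, a partner of HSP70, differed by -0.62, 2.27 and 2.14, and its second probe by -0.45, 2.53 and 2.08. Hspb1, a small heat shock protein, differed by -0.54, 1.20 and 2.98. Of 21 genes of the unfolded protein and heat shock response, 4 were higher and 0 lower in all pairs, where 20.2% and 18.8% of all genes were, and the list medians were -0.20, 0.31 and 0.33.

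The other higher genes named by rule differed by about 2-fold, a size that for some was smaller in other settings of the processing. Snai2, a transcriptional repressor, was higher by 1.37 (SE 0.24), Khdc1c by 1.35 (SE 0.26), Xcl1, a lymphocyte chemokine, by 1.15 (SE 0.19), Kcnrg by 1.09 (SE 0.13) and Capns2, a calpain subunit, by 1.08 (SE 0.16). Sema4f, Fam71b, Ifit1bl1 (of the interferon-induced IFIT family) and Lyve1, the hyaluronan receptor of lymphatic vessels and some macrophages, were higher by 1.00, 0.93, 0.85 and 0.77. Lyve1 read -1.57, -1.33 and -1.45 in control mice and -0.83, -0.44 and -0.77 after MI, a narrow spread between genotypes at both times.

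Of the lower genes named by rule, all were well above background on the 6 arrays. Ms4a8a, a tetraspan protein of the MS4A family, read 1.24, 0.85 and 0.82 in control mice and -1.60, -1.54 and -1.16 after MI. The mean difference was -2.40 (SE 0.21), 5.29-fold lower, with no overlap between control and MI. Bcl2l15, of the BCL2 family, read 1.11, 2.83 and 0.91 in control mice and -1.14, -0.54 and -0.69 after MI. All 3 of its probes were lower in each pair, with mean differences of -2.41, -2.23 and -1.07.

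Dnah2, an axonemal dynein chain, was lower by 2.49 on average (SE 0.21), Ccnjl, a cyclin J-like protein, by 2.03 (SE 0.23), Mnd1, a protein of meiotic recombination, by 1.84 (SE 0.46), and Prnp, the prion protein, by 1.29 (SE 0.13). Trnp1 was lower by 1.73 by the probe used, but its second probe differed by -0.22, 1.08 and 0.00. The levels of Ms4a8a, Bcl2l15 and Dnah2 were already below control at 1 week in both genotypes measured and stayed below it at 4 weeks. Ms4a8a, for example, read 0.33 and -0.28 at 1 week in WT and HDC-KO mice, and -0.06, -0.70 and -1.52 at 4 weeks. A set of 5 transcripts listed under Ensembl names without a symbol, with control levels above 4 on average, were lower by between 2.27 and 4.26 in every pair. One of them, ENSMUST00000099683, read 5.53, 5.40 and 5.75 in control mice and 1.27, 2.69 and 2.19 after MI, but 5.68 and 5.90 at 1 week in WT and HDC-KO mice, so it was near control level in between.

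**Figure D2:**
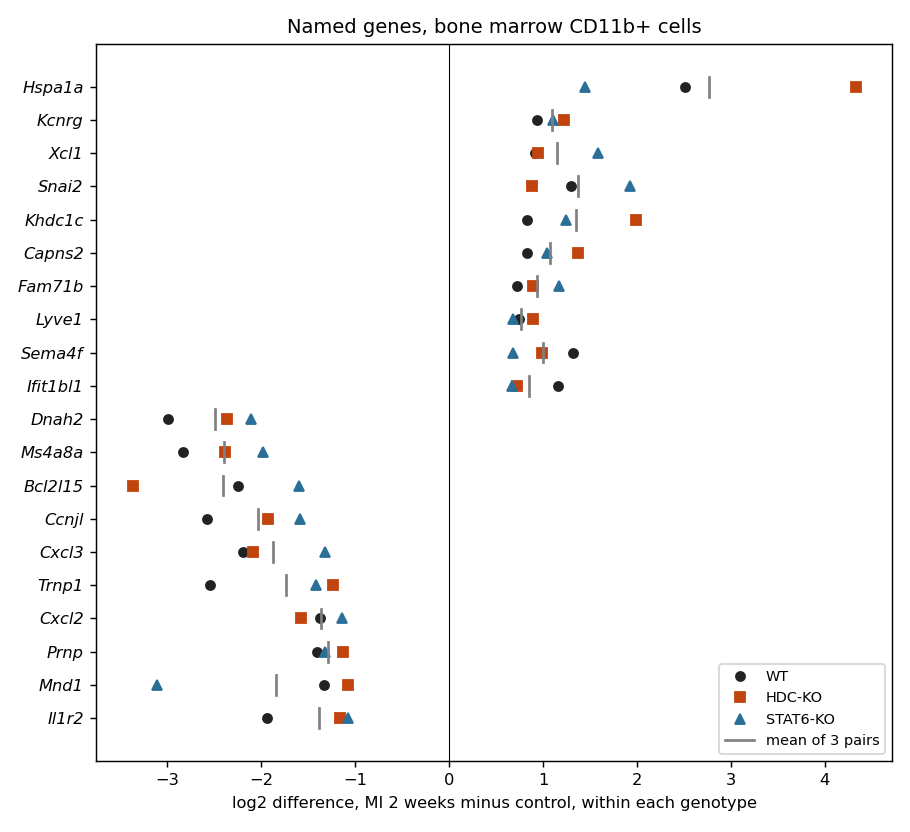
Difference in log2 level, MI 2 weeks minus control (x axis), of the genes named by rule (y axis) in the WT, HDC-KO and STAT6-KO pairs (points). Each gene lies on the same side of 0 in all pairs, and Hspa1a spreads the most, from 1.45 to 4.34.

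Cxcl2 and Cxcl3, chemokines that draw neutrophils, and Il1r2, a decoy receptor that blunts IL-1, were lower after MI in each pair. Cxcl2 read 1.53, 2.24 and 1.64 in control mice and 0.15, 0.67 and 0.50 after MI. The groups did not overlap, and the mean difference was -1.36 (SE 0.14), 2.57-fold lower. Cxcl3 read -3.58, -2.99 and -4.14 in control mice and -5.77, -5.08 and -5.47 after MI, a mean difference of -1.87 (SE 0.22). Cxcl1 was lower by 1.59 and 2.34 in the WT and HDC-KO pairs and by 0.06 in the STAT6-KO pair, with 5 of 6 readings well above background. Cxcl5, of the same kind, differed by 0.30, -0.64 and -0.50. Il1r2 read 4.15, 4.55 and 3.44 in control mice and 2.21, 3.39 and 2.37 after MI, a mean difference of -1.39 (SE 0.22).

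Cxcl2, Cxcl3 and Il1r2 were lowest at 2 weeks in every genotype. Il1r2 was still below control at 4 weeks, at 3.35, 3.94 and 2.67. Cxcl2 read 1.85 and 2.54 at 1 week in WT and HDC-KO mice, and 2.07, 3.33 and 1.66 at 4 weeks, so that the 3 arrays at 2 weeks were the lowest of the 11 bone marrow arrays. In spleen CD11b+ cells of WT and STAT6-KO mice at 2 weeks, Cxcl2 was lower than control by 1.81 and 1.88, Cxcl3 by 2.64 and 1.44, and Il1r2 by 1.95 and 1.51. The interaction of tissue and time, fitted over 8 arrays of WT and STAT6-KO mice, called 0 of 26734 genes at an adjusted p under 0.05 (limma, percent called 0%) and 3744 (14%) at an unadjusted p under 0.05.

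Over the 18 tested inflammatory chemokines, 2 were higher and 7 lower in all pairs (20.2% and 18.8% of all genes), and the median difference was -0.14, against 0.01 over all genes. Ccl9 was lower by 0.85 (SE 0.26) and Ccl2, the monocyte chemokine, by 0.44 (SE 0.15). Ccl7, which also draws monocytes, was higher by 1.12 (SE 0.25), with 5 of 6 readings well above background. Cxcl10, an interferon-induced chemokine of lymphocytes, was higher by 2.64 in WT mice and by 0.16 and 0.39 in the knockouts.

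Target genes of the glucocorticoid receptor were lower in most pairs. The list held 13 genes, all tested, of which 9 were lower and 0 higher in all 3 pairs, and 7 were lower at an unadjusted p under 0.05, against 18.8% and 3.72% of all genes. The median difference was -0.80, with pair medians of -0.86, -0.75 and -0.14. Without the STAT6-KO pair it was -1.11, and without the WT pair -0.45. Fkbp5, a co-chaperone that dampens the receptor, read 4.42, 4.83 and 4.20 in control mice and 2.68, 3.94 and 2.94 after MI, with no overlap and a mean difference of -1.30 (SE 0.21). Pik3ip1, which restrains PI3K, read -0.32, 0.84 and -1.59 in control mice and -2.62, -1.10 and -2.60 after MI, and the control array of STAT6-KO mice lay below one MI array.

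Klf9, a transcription factor, was lower by 1.76, 1.30 and 0.41. Ddit4, an inhibitor of mTOR, was lower by 0.86, 1.66 and 0.77, and Per1, also a clock gene, by 2.08, 1.22 and 0.14. Mt1, a metallothionein, was lower by 0.87 (SE 0.26) and Tsc22d3, known as GILZ, by 0.40 (SE 0.12). The mean was lower for 11 members and higher for 2, among them Cd163, a scavenger receptor of macrophages, by 0.32 (SE 0.19). Sgk1, a kinase, was near control level, at -0.06 (SE 0.11). In the same order of genotypes, the medians of the list against the same controls were -0.60 and -0.59 at 1 week (WT and HDC-KO) and -0.23, -0.22 and -0.25 at 4 weeks, and in spleen at 2 weeks they were -1.11 and -0.78 (WT and STAT6-KO). Fkbp5 itself was no closer to control at 4 weeks, at 2.58, 3.38 and 2.91.

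The motif of glucocorticoid receptor sites (GNACA, any 3 bases, TGTNC) was searched on both strands of the 250 bases before and 50 after each RefSeq start (GRCm38.p6). It was found in 2 of the 11 list genes with a promoter sequence (Mt1 and Sgk1, 18.2%), and in 0.475% of all promoters. A list gene counted if any of its promoters matched, so its share is per gene and the other per promoter. Of 18 clock genes, 4 were higher and 6 lower in all pairs, where 20.2% and 18.8% of all genes were, and the pair medians were -0.53, -0.10 and 0.08. Per2 was higher by 0.56 (SE 0.14) where Per1 was lower. The hour of collection is not given in the sources used here, and its part in these values was not tested.

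**Figure D3:**
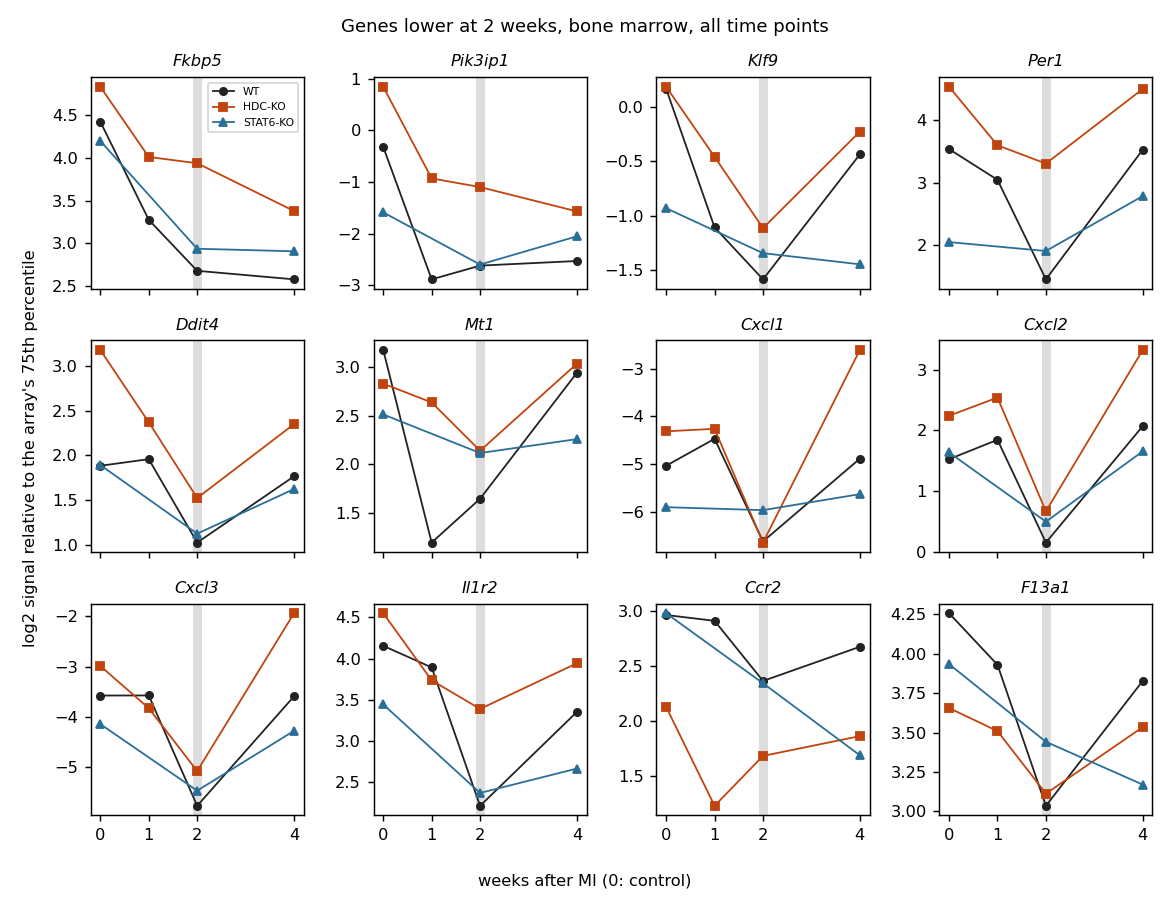
Levels (log2 signal relative to the array's 75th percentile, y axis) of genes lower at 2 weeks by weeks after MI (x axis, 0 is control) on the 11 complete bone marrow arrays, 1 line a genotype. The shaded time is 2 weeks; Cxcl2 was lowest there in all genotypes, and Fkbp5 stayed below control to 4 weeks.

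Interferon-induced genes differed between the genotype pairs. They encode proteins that block viral replication and are switched on by STAT complexes that bind a promoter element, the interferon-stimulated response element, with the core GAAA, any 2 bases, GAAA. Of 20 tested antiviral genes, 20 were higher in the WT pair, 7 in the HDC-KO pair and 17 in the STAT6-KO pair, with medians of 1.53, -0.18 and 0.60, and 16, 0 and 2 were over 2-fold higher (4.4%, 4.69% and 3.33% of all genes). In all 3 pairs 7 were higher and 0 lower (20.2% and 18.8% of all genes). Ifit3, which aids the sensing of viral RNA, read 1.64, 2.22 and -0.56 in control mice and 4.15, 1.75 and 1.00 after MI. Oasl2, of the oligoadenylate synthetase family, read 2.16, 4.20 and 0.58 in control mice and 5.07, 4.06 and 1.13 after MI, so the HDC-KO control lay above the STAT6-KO array after MI. Rsad2 (viperin) differed by 2.12, -0.39 and 1.44, and Isg15, a ubiquitin-like modifier, by 1.67, 0.01 and 0.96. Cmpk2, a mitochondrial nucleotide kinase, and Oas2 were higher in every pair, with mean differences of 0.80 (SE 0.25) and 0.62 (SE 0.21).

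Guanylate-binding proteins and immunity-related GTPases, which act on vacuoles that hold microbes, had the same order of pairs. Of 16 genes tested, 16 were higher in the WT pair and 12 lower in the HDC-KO pair, with medians of 1.78, -0.41 and 0.35. Gbp4 read -2.10, -0.84 and -3.26 in control mice and 0.71, -2.04 and -2.59 after MI. Gbp2 differed by 2.32, -0.78 and 0.85. Members of this family share sequence, so a probe may read more than 1 of them. Without the WT pair, the median over the 16 genes was -0.10, against 0.51 with it, and for the antiviral genes it was 0.23 against 0.73. Whether WT and HDC-KO mice respond differently was not tested, since each genotype has 1 pair.

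The medians over the antiviral genes against the same control arrays were 2.76 and -0.14 at 1 week (WT and HDC-KO) and 0.61, 0.44 and 2.35 at 4 weeks. Ifit3 in WT marrow was 5.86 at 1 week, 4.15 at 2 weeks and 2.22 at 4 weeks, whereas in STAT6-KO marrow it was 1.00 at 2 weeks and 4.86 at 4 weeks. Ly6a (Sca-1), a surface protein that interferon also induces, read -1.07, -1.40 and -1.55 in control mice and 1.53, -1.01 and -0.61 after MI.

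**Figure D4:**
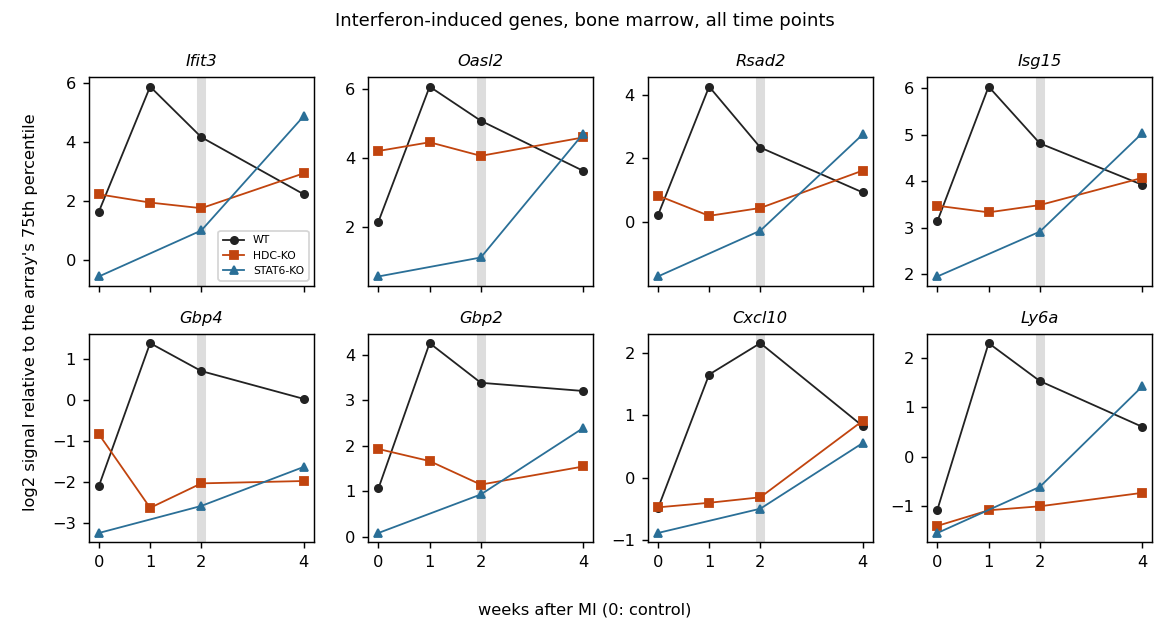
Levels (log2 signal relative to the array's 75th percentile, y axis) of interferon-induced genes by weeks after MI (x axis, 0 is control) on the 11 complete bone marrow arrays, 1 line a genotype. In WT marrow Ifit3 was at 1.64 in control mice and 4.15 at 2 weeks, and in HDC-KO marrow at 2.22 and 1.75.

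The promoter element is shown for Ifit3 and Rsad2, antiviral genes that lay below control in the HDC-KO pair and above it in the others, for Isg15, whose matches overlap, and for Gbp2 of the GTPases. The stretches are the 170 bases before the RefSeq start, 5′ to 3′ on the gene's strand (GRCm38.p6), and capitals mark each match to that core on either strand. They lie at chr19:34583359-34583528 (plus strand) for Ifit3, chr12:26456453-26456622 (minus) for Rsad2, chr4:156200819-156200988 (minus) for Isg15 and chr3:142620493-142620662 (plus) for Gbp2.
Ifit3: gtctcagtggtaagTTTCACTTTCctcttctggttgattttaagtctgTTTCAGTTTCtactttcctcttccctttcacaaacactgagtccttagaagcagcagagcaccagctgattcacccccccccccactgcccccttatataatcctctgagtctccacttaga
Rsad2: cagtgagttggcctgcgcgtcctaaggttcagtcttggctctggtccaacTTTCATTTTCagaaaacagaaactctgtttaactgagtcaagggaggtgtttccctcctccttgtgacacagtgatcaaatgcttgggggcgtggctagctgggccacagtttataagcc
Isg15: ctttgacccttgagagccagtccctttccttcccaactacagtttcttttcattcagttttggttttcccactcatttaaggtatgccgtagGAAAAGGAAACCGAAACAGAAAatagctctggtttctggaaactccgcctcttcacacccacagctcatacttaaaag
Gbp2: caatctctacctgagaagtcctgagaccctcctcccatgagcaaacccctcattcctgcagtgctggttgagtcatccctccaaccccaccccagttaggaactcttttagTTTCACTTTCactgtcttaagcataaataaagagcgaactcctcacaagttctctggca
The motif was found in 8 of 15 antiviral genes with a promoter sequence (53.3%) and in 9 of 10 of the GTPase genes (90%), against 3.44% of all 32851 promoters. The list shares are per gene, matched by any of its promoters, so they are not in the same unit as the share of promoters. A match is a description of the sequence and not evidence of binding in these cells.

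Neutrophil granule genes were close to control level, with those of the earliest granules slightly lower. Of 11 azurophil granule genes, 8 were lower and 1 higher in all pairs (18.8% and 20.2% of all genes), and the median difference was -0.33, with pair medians of -0.18, -0.14 and -0.50. Cytosolic ribosomal proteins had pair medians of -0.21, -0.15 and -0.17, so beside these only the STAT6-KO pair lay further from control. Ctsg, the protease cathepsin G, read 4.29, 4.56 and 4.84 in control mice and 3.88, 3.93 and 3.93 after MI, without overlap (6.67% of all genes lay below control without overlap). Mpo (myeloperoxidase) was lower by 0.34 (SE 0.11) and Elane (neutrophil elastase) by 0.35 (SE 0.13). The 11 specific granule genes had a median of 0.10, with Ltf (lactoferrin) at 0.08 (SE 0.11), and the 18 genes of gelatinase granules and mature neutrophils had a median of 0.05. Neutrophil markers had a median of 0.05, which was -0.03 when arrays were centred on their median, so their direction was not settled.

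Genes of dividing cells were slightly lower. Of 20 cell cycle genes, 11 were lower and 1 higher in all pairs (median -0.20, beside 18.8% and 20.2% of all genes), and of 20 DNA replication genes 11 were lower and 0 higher (median -0.21). Ccnb1, cyclin B1, was lower by 0.52, 0.63 and 0.41, and Mcm6, of the replicative helicase, by 0.47, 0.47 and 0.19. Cytosolic ribosomal proteins (19 of 30 lower in all pairs, median -0.17) and oxidative phosphorylation subunits (17 of 29, median -0.16) were lower by a similar size, and 0 genes of either list reached an unadjusted p under 0.05. No gene of these 4 lists was over 2-fold lower in any pair, where 3.32%, 4.88% and 1.03% of all genes were.

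Monocyte markers were lower in WT and HDC-KO mice. The median over 14 genes was -0.57, -0.26 and 0.11. In all pairs 2 were higher and 4 lower (20.2% and 18.8% of all genes), and in the STAT6-KO pair 10 were higher. Vcam1 was among these 10, at 2.41 in STAT6-KO control mice and 2.71 after MI. Ccr2, the receptor by which monocytes leave marrow, read 2.96, 2.13 and 2.98 in control mice and 2.37, 1.69 and 2.34 after MI, lower in each pair (mean -0.56, SE 0.12). F13a1, a coagulation factor subunit, was lower by 0.75 (SE 0.20). Without the WT pair, the median of the list was 0.02, against -0.27 with it.

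Markers of other marrow cells differed between the pairs. Over 10 megakaryocyte and platelet genes, 8 were lower and 0 higher in all pairs (18.8% and 20.2% of all genes), with medians of -0.26, -0.92 and -0.27. Vwf, which tethers platelets, was lower by 0.57 (SE 0.14). Over 12 erythroid genes, the medians were -1.18, -0.43 and 0.37. In all pairs 1 was higher and 2 lower (20.2% and 18.8% of all genes), and in the STAT6-KO pair 10 were higher. Slc4a1, the anion exchanger of red cells, read 2.56, 2.02 and 0.19 in control mice and 0.64, 0.79 and 0.04 after MI. It was lower in each pair, unlike most of its list in the STAT6-KO pair. Without the WT pair, the erythroid median was -0.01, against -0.41. B cell markers had medians of -0.03, -0.31 and 0.69, and 13 of 13 were higher in the STAT6-KO pair. The part of these cell types in the other differences was not tested.

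Among genes of marrow retention and egress, 5 of 17 were higher and 1 lower in all pairs, against 20.2% and 18.8% of all genes, so the counts set the list little apart. Cxcr4, the CXCL12 receptor, read 3.34, 3.44 and 3.10 in control mice and 3.67, 3.94 and 3.64 after MI (6.09% of all genes lay above control without overlap), with a mean difference of 0.46 (SE 0.12). Of 12 histamine and adrenergic genes, 6 were higher and 0 lower in all pairs (20.2% and 18.8% of all genes), and the median was 0.25. Hnmt, which inactivates histamine, was higher by 0.24, 0.42 and 0.59, and Slc18a2, the vesicular monoamine transporter, by 0.71, 0.50 and 0.41. Adrb3, the β3-adrenergic receptor, was higher by 0.75, 0.34 and 0.95, but a second, dimmer probe differed by 1.34, -1.31 and -0.29.

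Of 20 toll-like receptors and their adaptors, 6 were higher and 5 lower in all pairs, near the 20.2% and 18.8% of all genes. Tlr7, the receptor of single-stranded RNA, was lower by 1.32, 1.16 and 0.42, and its second probe by 1.17, 1.24 and 0.31. Tlr5, the flagellin receptor, was higher by 0.74 (SE 0.14), and Cd14, a co-receptor for lipopolysaccharide, was lower by 0.70 (SE 0.25). Among NF-κB and cytokine genes (4 of 21 higher and 2 lower in all pairs, at or under the 20.2% and 18.8% of all genes), Il1rn, the IL-1 receptor antagonist, was higher by 0.67 (SE 0.18) while Il1r2 was lower.

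**Figure D5:**
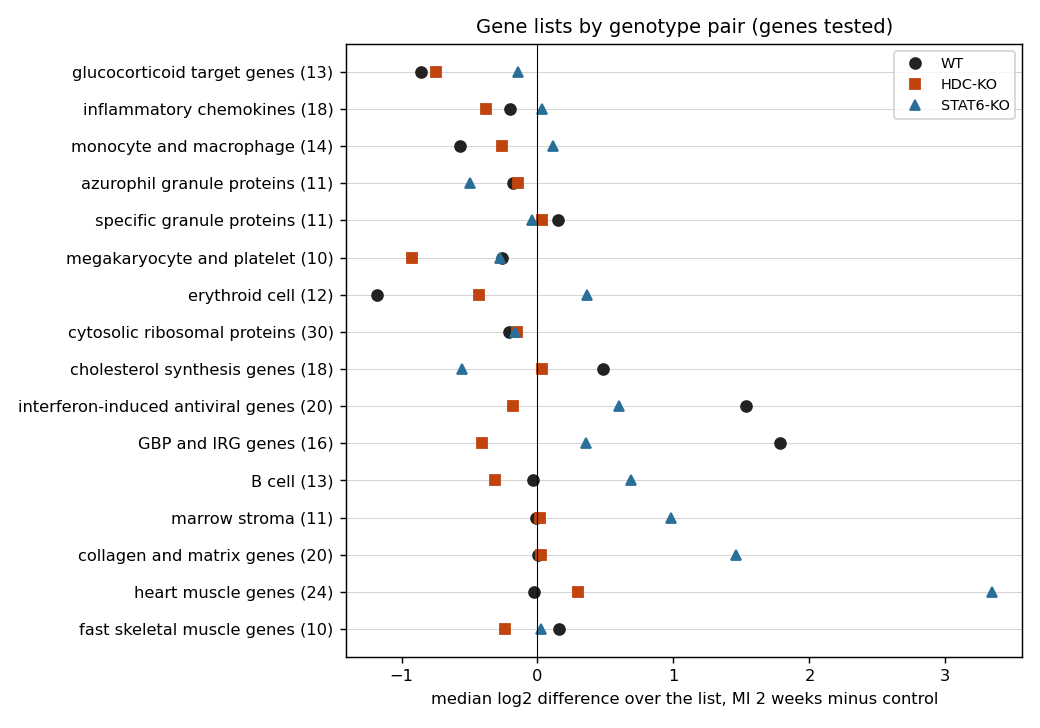
Median log2 difference, MI 2 weeks minus control (x axis), over each gene list (y axis, with the number of genes tested) in the WT, HDC-KO and STAT6-KO pairs (points). For fast skeletal muscle the medians are over all 12 genes, 10 of them tested. Glucocorticoid targets lie below 0 in all pairs (-0.86, -0.75 and -0.14), and interferon-induced genes are highest in the WT pair (1.53).

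In some lists the pairs lay on opposite sides of 0, so that their mean was near it. MHC class II genes had medians of -0.31, -0.17 and 0.51, with 9 and 10 of 12 lower in the WT and HDC-KO pairs and 11 higher in the STAT6-KO pair. Immediate early genes had medians of -0.23, 0.01 and 0.28, with 20 of 26 lower in the WT pair and 20 higher in the STAT6-KO pair. Type 2 target genes had medians of -0.41, 0.01 and 0.25. Cholesterol synthesis genes differed by genotype, with medians of 0.48, 0.04 and -0.55, and 16 of 18 were lower in the STAT6-KO pair. The median of the mean differences over pairs was -0.01 for alarmins, 0.01 for STAT and SOCS genes, -0.09 for TGF-β ligands, receptors and SMADs, 0.11 for Fc receptors, 0.13 for CD11b and partner integrins, -0.07 for myeloid transcription factors, 0.02 for glycolysis and hypoxia genes and -0.06 for p53 target genes. Among markers of other cells, it was 0.01 for T cells, 0.10 for NK cells, -0.05 for plasma cells, -0.23 for eosinophils, 0.28 for basophils and mast cells, -0.18 for dendritic cells and -0.08 for stem and progenitor cells.

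Some genes stood out in a single pair, chosen for that difference. Cd209a, a lectin of dendritic cells and monocytes, read 0.48, -0.58 and -1.35 in control mice and -2.39, 0.28 and 0.12 after MI, so it was lower in WT mice alone. Gdf15, a stress-induced cytokine, differed by -1.07, 1.62 and 1.83. Car14, a carbonic anhydrase, was higher by 2.99 in WT mice and differed by -0.96 and -0.14 in the knockouts. Peg10 was higher by 2.53 and Mbl2, a mannose-binding lectin, lower by 3.35 in the HDC-KO pair, whereas in the WT pair they differed by -2.25 and 1.69.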

How the data were processed

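RNA of CD11b+ cells was hybridised by the authors on one-colour Agilent mouse arrays and read with Agilent Feature Extraction 11.0.1.1. The deposited values used here are processed spot intensities on a linear scale, background-subtracted by the authors' software and not scaled between arrays. Outlier spots were left out, repeat spots averaged, signals taken to log2 and each array's 75th percentile over non-control spots subtracted. Probes were named through RefSeq accessions, which gave 27234 of 39429 probes a symbol, and a gene was read by its brightest probe. Of 145 described genes with 2 or more probes well above background, 50 had probes that differed in sign. Genes well above background on at least 2 of the 6 arrays were tested with limma 3.58.1 (R 4.3.3), with genotype as the pairing term (residual df 2) and Benjamini-Hochberg adjustment over all genes. The pairing comes from the genotypes in the labels, each on its own slide. The p-values measure only the spread between 3 genotype pairs.

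The named genes were, in each direction, the 10 with the largest smallest pair difference among genes with a symbol and well above background on all 6 arrays, up to 4 members of each gene list by mean difference, and for each genotype the 4 that exceeded both other pairs most. Members and lists were chosen with earlier results of these data known. The code was tested on simulated data. A further 2 arrays, with 85 and 229 spots, were not used. Promoters came from RefSeq (GRCm38.p6), and figures were drawn with matplotlib 3.10.9.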

Additional observations from a re-analysis of the deposited data

Results flagged for a closer look

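For 7 gene lists, the median difference from control at 2 weeks lay on one side of 0 in the bone marrow of WT and STAT6-KO mice and on the other side in their spleen. The difference between the tissues was not tested for lists, and 0 single genes passed the interaction test. Values are given for bone marrow of WT and STAT6-KO mice, then for spleen, and the last is the median over the genes of the bone marrow difference minus the spleen difference. In the same order, the medians over all genes tested were 0.02 and 0.00 in bone marrow and -0.04 and -0.17 in spleen. Integrins and NF-κB genes in STAT6-KO spleen lay above that last value, and list medians near 0 give no clear side.

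Cell cycle genes were at -0.24 and -0.24 in bone marrow and 1.09 and 0.40 in spleen (median of the differences -0.92). DNA replication genes were at -0.47 and -0.09 in bone marrow and 0.86 and 0.12 in spleen (-0.79). Collagen and matrix genes, which in bone marrow were higher in the pair that held heart muscle transcripts, were at 0.00 and 1.46 in bone marrow and -0.41 and -0.55 in spleen (1.00).

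Histamine and adrenergic receptor genes were at 0.32 and 0.12 in bone marrow and -0.23 and -0.50 in spleen (0.66). CD11b and partner integrins were at 0.06 and 0.13 in bone marrow and -0.38 and -0.07 in spleen (0.30). NF-κB feedback and cytokine genes were at 0.11 and 0.33 in bone marrow and -0.32 and -0.06 in spleen (0.17). p53 target genes were at -0.31 and -0.02 in bone marrow and 0.09 and 0.17 in spleen (-0.0403).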

How the results depend on the processing

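The count of 0 genes at an adjusted p under 0.05 was the same in each alternative, with a smallest adjusted p between 0.204 (all 11 bone marrow arrays) and 0.828 (without the HDC-KO pair). Without the replicate block (genotype pairs) it was 0, with 1377 genes at an unadjusted p under 0.05 against 2611 with it. By the methods' t-test at a fold over 2 and an unadjusted p, 110 genes were called (56 higher and 54 lower), and 0 after Benjamini-Hochberg (smallest adjusted p 0.0580). The 44 genes over 2-fold in all pairs became 14 (0 higher) with normexp background correction, 25 with dim signals raised to the detection limit, 24 with only genes well above background on every array, and 119 to 415 with one pair left out, which asks for agreement of 2 pairs. Without the WT pair the count was 166, without the HDC-KO pair 119, and without the STAT6-KO pair 415, of which 320 were higher. The cause of the changes was not tested. The 20 genes named for their smallest pair difference kept their direction in every setting. Their choice by a shared direction in all pairs fixed this where a pair was left out, and made it likely in the other settings. The size of their differences held less well for some. Over all settings Snai2 lay between 0.67 and 1.61, Khdc1c between 0.63 and 1.61, and Xcl1 between 0.56 and 1.26. Cxcl3 lay between -2.14 and -0.93 and Dnah2 between -2.68 and -1.37, whereas Ms4a8a lay between -2.61 and -2.19. Over all settings other than leaving out a pair, 332 of 360 list medians moved by less than the spread between pairs. Medians near 0 should be read with the shift of all genes between scalings, from -0.07 to 0.04. In simulated data with 3 pairs, 6% of true 2-fold differences passed the adjusted test, a share that need not hold for these arrays.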
